A study of Mus musculus with 16 samples.

Results

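The interleukin genes and interleukin receptor genes of MC38 liver metastases were described across 4 treatment groups. Members were all genes in the count data whose mouse symbol begins with Il followed by a digit, and 84 of the 21959 genes listed met this rule. They comprised 37 ligands, 37 receptor chains, 6 antagonists or decoy receptors and 4 other genes, namely the cytokine Il16, the IL-1 receptor relatives Il1rapl1 and Il1rapl2, and the enzyme gene Il4i1. RNA came from tumor tissue of 16 male wild-type C57BL/6 mice, 4 in each group, which received MC38 cells, a mouse colon adenocarcinoma line derived from the same strain, by injection into the spleen at 6 weeks of age. The control group had PBS. The SB525334 group had an inhibitor of TGF-β receptor I (ALK5) at 20 mg/kg by mouth each day, the KN046 group had a bispecific antibody against PD-L1 and CTLA-4 at 10 mg/kg into the peritoneum 2 times a week, and the combination group had both agents. All 16 mice carried the same tumor line, and no tumor-free liver was analysed here.

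Interleukins are secreted proteins by which immune and stromal cells signal to each other, and each acts through a receptor of several chains, some of which serve more than one cytokine. The common gamma chain Il2rg is shared by the receptors for IL-2, IL-4, IL-7, IL-9, IL-15 and IL-21, whereas Il6st (gp130) is shared by the IL-6 group. The IL-1 group is held in check by proteins that bind the ligand or the receptor without signaling, and in liver it takes part in the acute phase response of hepatocytes.

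Libraries held 18368994 to 23877131 counts. A summed list of 14 hepatocyte markers, which included Alb, Ttr and Apoa1, ranged from 14780 to 16520 CPM (counts scaled to a common library size with TMM factors) in control mice, from 357.1 to 1888 with SB525334, from 9005 to 18410 with KN046 and from 13.62 to 21.94 with the combination, and none of these markers was at 0 throughout a group. Hepatocyte marker RNA thus differed widely between groups that carry the same tissue label, liver metastases. In bulk tissue, fewer cells of a type and less RNA per cell cannot be told apart. Control mice 1 and 2, and control mice 3 and 4, were more alike than any other mice within a group, and control mice 1 and 2 both exceeded control mice 3 and 4 in 32 of the 44 members tested. Each comparison with the control group rests on these same 4 mice, and values with each pair summed to 1 library are therefore given where a call was lost.

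Of the 84 members, 71 had at least 1 count and 44 passed the filter on low counts, namely 11 ligands, 29 receptor chains, 3 antagonists or decoys and Il16. Levels were compared between genes as CPM per kilobase of exon, over all 16 mice. Exon length was the union of all annotated exons of a gene. It can exceed the length of the transcripts present, which lowers the level. Before this division Il6st averaged 248.5 CPM over 15529 bases and Il34 83.0 CPM over 3810 bases, so their order depends on these lengths. Il34, a ligand of the CSF1 receptor that maintains macrophages, had the highest level among members at 21.8 ± 3.07 (SD, n = 16), with a range of 17.5 to 27.0. Il6st followed at 16 ± 1.99, Il2rg at 9.71 ± 1.85 and Il17ra, the chain common to IL-17 receptors, at 8.43 ± 0.842. Ranges were 13.1 to 20.0 for Il6st, 6.03 to 13.3 for Il2rg and 7.33 to 9.65 for Il17ra. Within a mouse, Il34 was above Il6st in 15 of 16, Il6st above Il2rg in 16 of 16 and Il2rg above Il17ra in 14 of 16. The ligands Il1b and Il4 reached 4.79 ± 3.38 and 2.10 ± 0.674. Among antagonists the levels were 3.65 ± 1.58 for Il1rn, 2.68 ± 1.25 for Il18bp and 1.42 ± 0.808 for Il1r2. The lowest tested member was Il6, the main inducer of the acute phase response, at 0.115 ± 0.108.

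**Figure D1:**
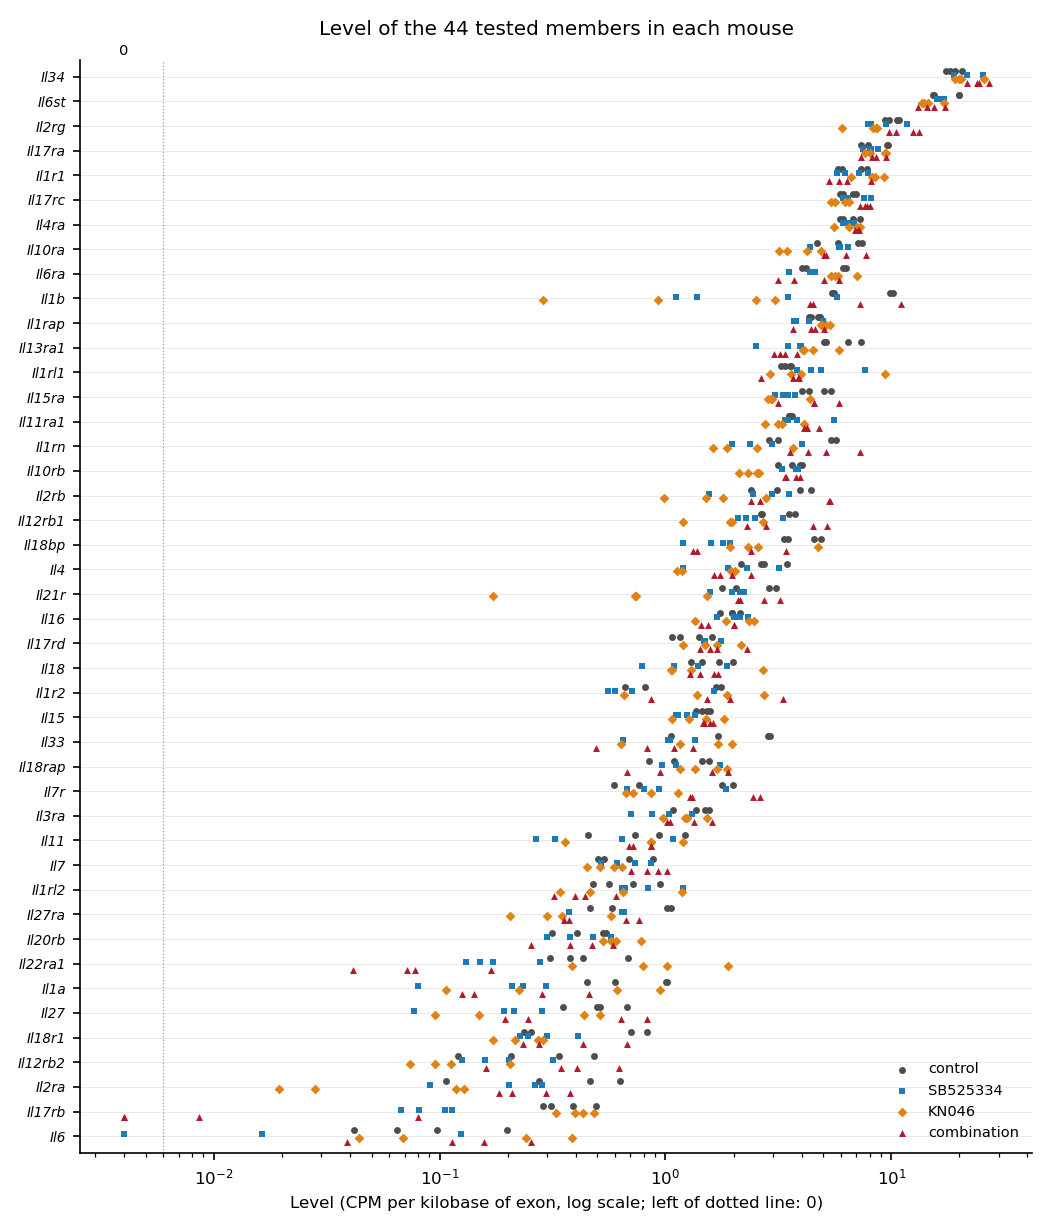
Level of the 44 tested members in each of the 16 mice, in CPM per kilobase of exon on a log axis, with members ordered by mean. Each symbol is 1 mouse, and symbols left of the dotted line are libraries at 0. Il34 lay between 17.5 and 27.0 in all mice, while Il1b, Il21r, Il2ra, Il22ra1 and Il17rb spread widely between groups.

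With SB525334 against control, 4 members fell and 0 rose among 44 tested (edgeR, adjusted p under 0.05). They were Il1a, Il18bp, Il13ra1 and Il17rb. Over all 13968 genes tested, 9.22% were lower and 0.394% higher in this comparison, so the members' share of 9.09% lower was near the background. At an unadjusted p under 0.05, 9 members were lower and 1 higher, and DESeq2 called 5 lower and 0 higher. Over all genes, 18.9% had an edgeR unadjusted p under 0.05 in either direction, and DESeq2 called 1567. Over members the log2 fold changes had a median of -0.31, beside 0.00059 over all genes.

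With KN046 against control, 4 members fell and 0 rose, namely Il1b, Il2ra, Il21r and Il10rb. The background was 2.4% lower and 1.6% higher, beside 9.09% of members lower. At an unadjusted p under 0.05, 16 members were lower and 1 higher, and DESeq2 called 7 lower and 0 higher. Over all genes, 23.1% had an edgeR unadjusted p under 0.05 in either direction, and DESeq2 called 1256. The median was -0.20 for members and -0.03 for all genes. With control pairs summed, or with only the control and KN046 mice in the fit, 0 of the 4 calls held. Over all genes, this comparison had 559 calls in the fit of all 16 mice. It had 0 with control pairs summed and 75 with only the control and KN046 mice.

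The combination against control lowered 3 members, Il17rb, Il22ra1 and Il13ra1, and raised 0, with a background of 9.74% lower and 1.37% higher. Members lower were 6.82% of those tested, which was below the background share. At an unadjusted p under 0.05, 6 were lower and 3 higher, and DESeq2 called 6 lower and 1 higher. Over all genes, 22.1% had an edgeR unadjusted p under 0.05 in either direction, and DESeq2 called 1823.

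The combination against KN046 alone gave the most calls among the members. In it 12 members rose and 2 fell, against a background of 9.89% higher and 14.5% lower, so 27.3% of members were higher and 4.55% lower. The 12 were Il1b, Il1rn, Il2ra, Il2rb, Il2rg, Il7r, Il21r, Il12rb1, Il12rb2, Il10ra, Il10rb and Il17rc, and the 2 were Il17rb and Il22ra1. With only the KN046 and combination mice in the fit, 7 members rose, and Il2rg, Il2rb, Il10ra, Il12rb1 and Il17rc had edgeR adjusted p-values of 0.0506 to 0.0606. DESeq2 called 13 higher and 3 lower. Over all 44 members tested, called or not, the log2 fold changes had a median of 0.11, beside 0.00081 over all genes.

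The combination against SB525334 alone gave 0 calls in either direction, with a background of 0.544% higher and 3.03% lower. At an unadjusted p under 0.05, edgeR had 7 members higher and 2 lower, and DESeq2 called 0 higher and 1, Il17rb, lower. Over all genes, 9.19% had an edgeR unadjusted p under 0.05 in either direction, and DESeq2 called 657. The interaction is the log2 fold change of adding SB525334 to KN046 minus that of SB525334 over PBS. It was positive for 5 members, Il1b, Il1rn, Il21r, Il10rb and Il15ra, and negative for 0, with a background of 1.73% positive and 2.55% negative. At an unadjusted p under 0.05 it was positive for 14 members and negative for 3, and by DESeq2 for 8 and 1. Over all genes, the interaction had an edgeR unadjusted p under 0.05 in 16.6%, and DESeq2 called 951.

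**Figure D2:**
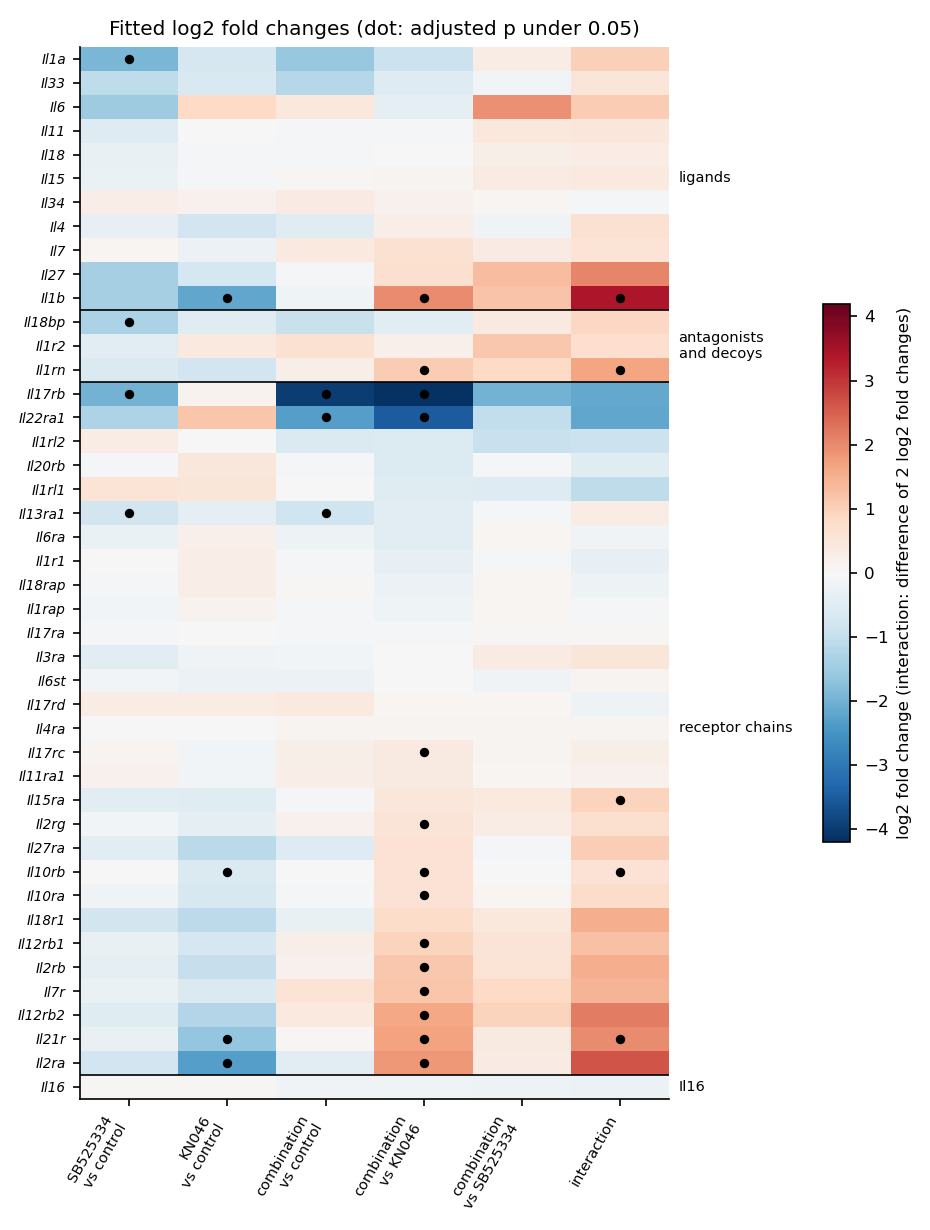
Fitted log2 fold changes of the 44 tested members in 6 comparisons, grouped by role and ordered within a role by the combination against KN046. Black dots mark an edgeR adjusted p under 0.05, of which there are 30, and 12 of them are the members higher with the combination than with KN046.

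Among ligands, Il1b encodes interleukin-1β, an inflammatory cytokine made as an inactive precursor mainly by myeloid cells (GRCm39 chr2:129206490-129213059, minus strand). Its level was 26.4, 25.6, 14.2 and 14.5 CPM in control mice 1 to 4 and 9.09, 2.91, 14.9 and 3.58 CPM with SB525334. It was 0.746, 7.93, 2.40 and 6.55 CPM with KN046 and 28.6, 11.7, 11.4 and 18.9 CPM with the combination. All KN046 mice lay below all control and all combination mice, whereas SB525334 and combination mice overlapped the controls. Against control, Il1b fell with KN046 by 2.19 on the log2 scale (SE 0.58, edgeR adjusted p = 0.0458). That call held in 5 of 16 fits that each left out 1 mouse, with an adjusted p of 0.123 without KN046 mouse 1, and was 0.234 with control pairs summed. Il1b was higher with the combination than with KN046 by 1.99 (SE 0.58, edgeR adjusted p = 0.0192), a call lost, at 0.0552, without KN046 mouse 3. Its interaction was 3.40 (SE 0.80, edgeR adjusted p = 0.0203) and held in 16 of 16 such fits, but was 0.0667 with control pairs summed. The group means were 20.2 ± 6.72 CPM in control, 7.61 ± 5.58 with SB525334, 4.41 ± 3.38 with KN046 and 17.6 ± 8.10 under the combination (SD, n = 4).

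Il1a, the other IL-1 receptor agonist, which is active also as its precursor, was 3.5, 3.55, 2.08 and 1.57 CPM in control and 0.814, 0.279, 0.732 and 1.03 CPM with SB525334. It was 0.373, 3.31, 0.782 and 2.13 CPM with KN046 and 1.59, 0.497, 0.437 and 0.99 CPM with the combination. All SB525334 mice were below all controls. The fall with SB525334 was 1.90 on the log2 scale (SE 0.58, edgeR adjusted p = 0.0456). It held in 6 of 16 fits without 1 mouse, reached 0.144 without SB525334 mouse 2, and was 0.151 with control pairs summed. The combination against control was -1.59 (SE 0.58) with an edgeR adjusted p of 0.0946, which missed the threshold.

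Il1rn encodes the IL-1 receptor antagonist, which occupies the receptor without signaling. It measured 29.8, 31.3, 15.9 and 17.4 CPM in control, 13.2, 10.9, 22.3 and 16.5 CPM with SB525334, 9.01, 20.3, 10.4 and 14.1 CPM with KN046, and 23.7, 28.4, 19.7 and 40.4 CPM with the combination. Of the KN046 mice, only mouse 2 reached into the range of the combination, which control and SB525334 mice also overlapped. Il1rn was higher with the combination than with KN046 by 1.06 (SE 0.30, edgeR adjusted p = 0.0179), in 13 of 16 fits without 1 mouse, and was 0.0703 without combination mouse 4. Its interaction of 1.65 (SE 0.42, edgeR adjusted p = 0.0336) held in 7 of 16 such fits, and was 0.0969 without combination mouse 4 and 0.0848 with control pairs summed.

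The ratio of Il1b to Il1rn in CPM, a measure chosen after the values were seen and given with no test, was 0.884, 0.817, 0.892 and 0.835 in control mice. It was 0.691, 0.267, 0.667 and 0.217 with SB525334, 0.0828, 0.390, 0.231 and 0.463 with KN046 and 1.21, 0.412, 0.576 and 0.468 with the combination. The controls were close together and lay above all mice of both single-agent groups, and in the combination 1 mouse lay above the controls and 3 below.

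**Figure D3:**
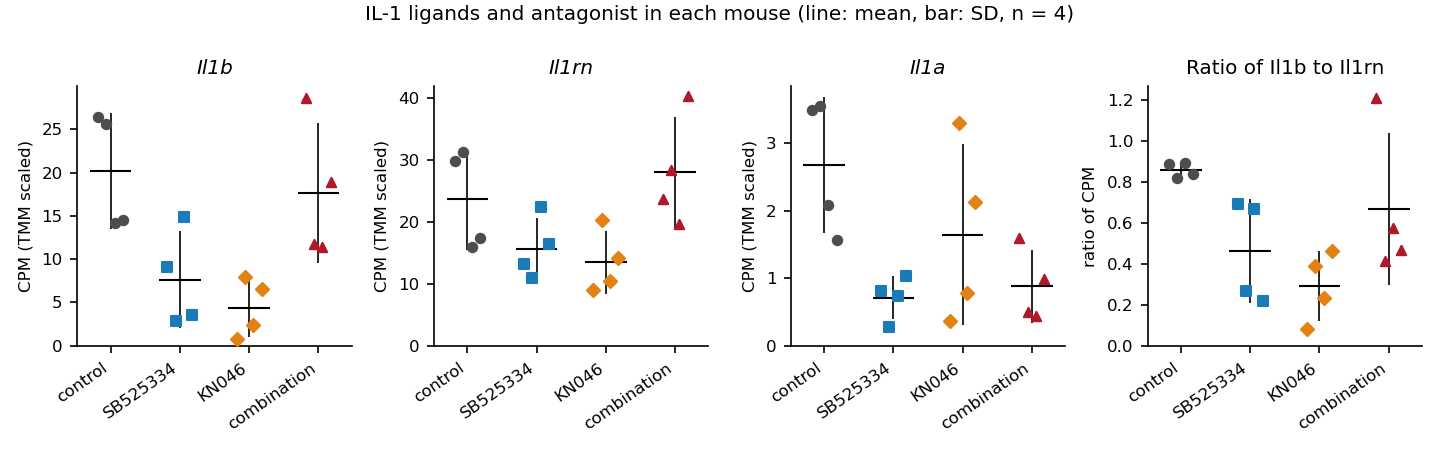
Level of Il1b, Il1rn and Il1a in each mouse, in CPM, and the ratio of Il1b to Il1rn. Each symbol is 1 mouse, horizontal lines are group means and vertical bars are SD (n = 4). Il1b was 0.746 to 7.93 CPM with KN046, below every control and combination mouse.

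Markers of myeloid cells were measured beside these genes. The summed level of 7 macrophage markers was 897.0 to 962.4 CPM in control, 816.9 to 1250 with SB525334, 538.5 to 1062 with KN046 and 888.9 to 1014 under the combination. Of these 7, 4 were higher with the combination than with KN046 (2 with control pairs summed) and 0 were called in KN046 against control. The summed level of 7 neutrophil markers was 153.8 to 176.5 CPM in control, 68.66 to 96.78 with SB525334, 48.18 to 102.1 with KN046 and 78.2 to 194.5 under the combination. Of these, 5 were lower with SB525334 than in control, Ly6g was at 0 in all SB525334 mice, and 4 had a positive interaction (2 with control pairs summed). Of the same 7, 0 were called in KN046 against control and 0 in the combination against KN046. The part of either cell type in the IL-1 values was not tested.

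Il18bp encodes a secreted protein that binds and blocks interleukin-18. It was 24.3, 22.7, 16.6 and 17.3 CPM in control, 8.95, 9.63, 5.94 and 7.93 CPM with SB525334, 9.54, 23.5, 11.6 and 12.7 CPM with KN046 and 17.0, 6.84, 6.61 and 11.8 CPM with the combination. Every SB525334 mouse was below every control. The fall with SB525334 was 1.32 on the log2 scale (SE 0.31, edgeR adjusted p = 0.00697) and held in 16 of 16 fits without 1 mouse and at 0.0414 with control pairs summed. The combination against control gave -0.93 (SE 0.30) at an edgeR adjusted p of 0.0590. Exons of Il18bp share 8.98% of their bases with Numa1 on the opposite strand, and the strand setting of the counting is not given in the sources used here. Numa1 itself was 325 CPM in control and 369 CPM with SB525334, with an edgeR adjusted p of 0.526.

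Il18, the ligand that Il18bp binds, was not called in any comparison, and its range over the 16 mice was 2.37 to 8.12 CPM. Il1r2, a decoy receptor for IL-1, was 4.46, 4.21, 1.67 and 2.04 CPM in control, 1.40, 1.79, 4.13 and 1.51 CPM with SB525334, 4.74, 1.65, 6.87 and 3.48 CPM with KN046 and 8.37, 3.86, 2.18 and 4.86 CPM with the combination. The 4 groups overlapped, and no comparison of Il1r2 was called.

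Il34 was 72.9, 78.5, 69.1 and 66.6 CPM in control and 82.5, 103, 92.6 and 90.9 CPM with the combination, with SB525334 mice at 72.1 to 97.3 and KN046 mice at 73.0 to 97.5 CPM. All combination mice were above all controls, yet the log2 fold change of 0.36 (SE 0.12) had an edgeR adjusted p of 0.0553 and was not called. Il4, the ligand that drives type 2 responses, was 3.24, 2.65, 3.35 and 4.23 CPM in control and 1.39, 1.46, 2.40 and 2.49 CPM with KN046, without overlap, at a log2 fold change of -0.80 (SE 0.31, edgeR adjusted p = 0.132). Its exons share 14.6% of their bases with Kif3a on the opposite strand. Il6 was 0.481, 0.237, 0.101 and 0.157 CPM in control, 0, 0.0398, 0.301 and 0 CPM with SB525334, 0.107, 0.583, 0.168 and 0.935 CPM with KN046 and 0.616, 0.276, 0.382 and 0.0943 CPM with the combination. It overlapped between all groups, 0 comparisons called it, and a library at 0 still allows up to 3 counts, which is 0.119 to 0.168 CPM by library.

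Of the 12 members higher with the combination than with KN046, 10 were receptor chains, of 29 such chains tested. Il2ra, the alpha chain that gives the IL-2 receptor high affinity and is found on regulatory and activated T cells, was 3.59, 2.65, 0.609 and 1.57 CPM in control and 1.63, 1.15, 0.516 and 1.51 CPM with SB525334. It was 0.16, 0.729, 0.112 and 0.675 CPM with KN046 and 1.70, 1.05, 1.20 and 2.17 CPM with the combination. All combination mice were above all KN046 mice, whereas control mouse 3 lay within the KN046 range. Il2ra fell with KN046 against control by 2.30 on the log2 scale (SE 0.59, edgeR adjusted p = 0.0413), in 8 of 16 fits without 1 mouse, and the adjusted p was 0.212 with control pairs summed. It was higher with the combination than with KN046 by 1.84 (SE 0.59, edgeR adjusted p = 0.0331), in 13 of 16 fits, with 0.0945 without KN046 mouse 1.

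Il21r, the receptor of the T helper cytokine IL-21, was 9.71, 10.5, 6.95 and 6.01 CPM in control, 7.55, 6.65, 5.34 and 7.24 CPM with SB525334, 0.586, 5.15, 2.52 and 2.49 CPM with KN046 and 9.29, 7.23, 7.10 and 10.9 CPM with the combination. Every KN046 mouse was below every mouse of the other 3 groups. The fall with KN046 was 1.62 on the log2 scale (SE 0.39, edgeR adjusted p = 0.0335), held in 9 of 16 fits, and was 0.215 with control pairs summed. The combination was higher than KN046 by 1.68 (SE 0.39, edgeR adjusted p = 0.00501), in 16 of 16 fits. The interaction of 1.98 (SE 0.53, edgeR adjusted p = 0.0435) held in 3 of 16 fits, and was 0.129 with control pairs summed.

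Il2rb, the signaling chain shared by IL-2 and IL-15, was 7.78, 12.1, 4.30 and 6.60 CPM with KN046 and 23.2, 10.4, 11.4 and 23.0 CPM with the combination, and the controls were at 10.4 to 19.1 CPM. KN046 mouse 2 overlapped the combination, in which mice 1 and 4 were about 23 CPM and mice 2 and 3 about 11 CPM. The difference was 1.14 (SE 0.34, edgeR adjusted p = 0.0204), in 14 of 16 fits, with 0.0673 without combination mouse 4. Il2rg was 25.2, 23.3, 25.8 and 22.4 CPM in control, 14.4, 20.6, 20.4 and 19.9 CPM with KN046 and 29.8, 23.4, 24.9 and 31.7 CPM with the combination. KN046 mice lay below the controls and the combination mice, and the combination was higher by 0.54 (SE 0.15, edgeR adjusted p = 0.0157), in 15 of 16 fits, with 0.0502 without combination mouse 4.

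Il7r, the IL-7 receptor chain on naive and memory T cells, was 3.36, 4.04, 3.13 and 5.30 CPM with KN046 and 11.4, 5.96, 6.11 and 12.2 CPM with the combination, while controls were 9.27, 8.28, 3.55 and 2.77 CPM. Combination mice 1 and 4 were again the highest, and no combination mouse overlapped KN046. The difference was 1.17 (SE 0.40, edgeR adjusted p = 0.0421), in 11 of 16 fits, with 0.116 without combination mouse 4. Il15ra, which presents IL-15 to neighbouring cells, was 23.9, 22.3, 19.1 and 17.8 CPM in control, 15.5, 16.6, 14.8 and 13.6 CPM with SB525334, 12.6, 19.3, 13.2 and 13.0 CPM with KN046 and 26.0, 14, 20.3 and 20.2 CPM with the combination. Its interaction was 0.93 (SE 0.25, edgeR adjusted p = 0.0470), held in 3 of 16 fits and was 0.136 with control pairs summed, and no pairwise comparison called it.

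The IL-12 receptor chains rose together with the combination against KN046. Il12rb1, which also serves IL-23, was 7.46, 12.2, 12 and 16.8 CPM with KN046 and 32.3, 14.2, 17.3 and 28.0 CPM with the combination, a difference of 0.92 (SE 0.26, edgeR adjusted p = 0.0178), in 14 of 16 fits, with 0.0552 without KN046 mouse 1. Il12rb2, the chain that confers IL-12 response on T helper 1 and NK cells, was 0.426, 0.778, 0.279 and 0.364 CPM with KN046 and 1.54, 0.607, 1.31 and 2.36 CPM with the combination, a difference of 1.64 (SE 0.51, edgeR adjusted p = 0.0268), in 12 of 16 fits, with 0.0962 without combination mouse 4. In each gene 1 KN046 mouse overlapped the combination. Exons of Il12rb2 share 40.0% of their bases with Serbp1 on the opposite strand, and Serbp1 was 687 CPM with KN046 and 750 CPM with the combination (edgeR adjusted p = 0.638). The ligand chains Il12a and Il12b had 17 and 93 counts over all mice and were not tested.

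Il10ra and Il10rb form the IL-10 receptor, and Il10rb is also used by IL-22 and the type III interferons. Il10rb was 24.3, 19.4, 24.8 and 22.2 CPM in control, 23.6, 23.7, 20.1 and 23.2 CPM with SB525334, 14.2, 16, 13.0 and 15.6 CPM with KN046 and 21.0, 20.8, 23.2 and 24.2 CPM with the combination. Every KN046 mouse was below every mouse of the other 3 groups. Il10rb fell with KN046 against control by 0.62 on the log2 scale (SE 0.12, edgeR adjusted p = 0.0166), in 13 of 16 fits and at 0.165 with control pairs summed. It was higher with the combination than with KN046 by 0.60 (SE 0.12, edgeR adjusted p = 0.00116), in 16 of 16 fits. The interaction of 0.60 (SE 0.16, edgeR adjusted p = 0.0461) held in 3 of 16 fits and was 0.118 with control pairs summed. Exons of Il10rb share 27.9% of their bases with the read-through model Gm21970, which had 0 counts in all mice.

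Il10ra was 18.5, 21.3, 13.9 and 15.1 CPM with KN046 and 33.7, 22.4, 21.9 and 27.5 CPM with the combination, without overlap, and 20.5 to 32.5 CPM in control. The combination was higher by 0.62 (SE 0.19, edgeR adjusted p = 0.0236), in 12 of 16 fits, with 0.0645 without KN046 mouse 3. Il17rc, which pairs with Il17ra as the receptor of IL-17A and IL-17F, was 29.3, 24.6, 28.2 and 25.4 CPM with KN046 and 32.9, 35.5, 36.5 and 34.8 CPM with the combination, again without overlap, a difference of 0.38 (SE 0.11, edgeR adjusted p = 0.0190), in 16 of 16 fits. Il17ra itself stayed within 64.3 to 84.7 CPM over all 16 mice and was not called, and its ligand Il17a had 1 count in all.

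**Figure D4:**
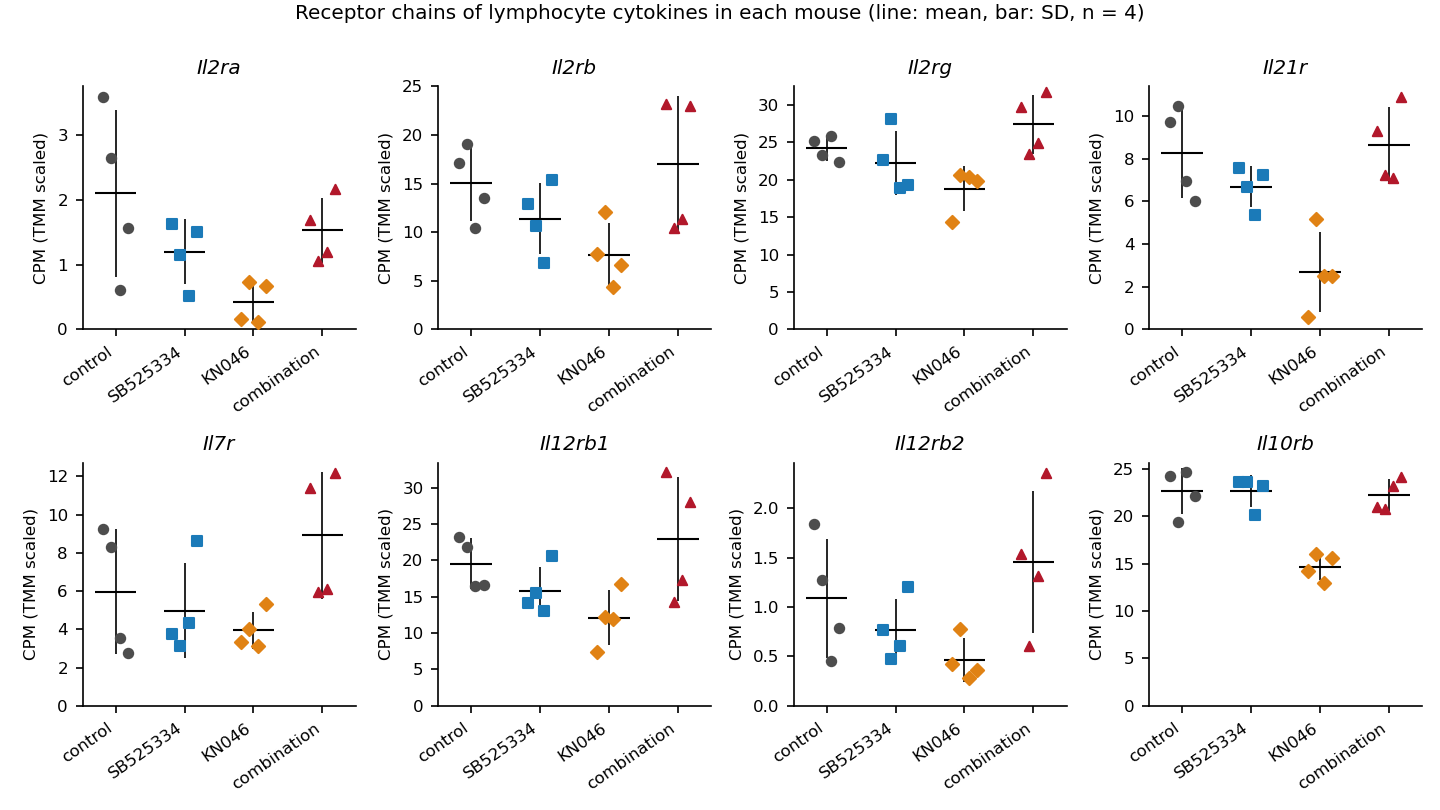
Level of 8 receptor chains in each mouse, in CPM. Each symbol is 1 mouse, horizontal lines are group means and vertical bars are SD (n = 4). KN046 mice were lowest for Il21r and Il10rb, at 0.586 to 5.15 and 13.0 to 16 CPM, and combination mice 1 and 4 were highest for Il7r, at 11.4 and 12.2 CPM.

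Markers of T and NK cells were measured beside these receptors. Of the receptor chains higher with the combination than with KN046, only Il2ra, Il21r and Il10rb were also called with KN046 against control. Only Il21r and Il10rb of these chains were called in the interaction. The summed level of 10 T cell markers was 55.66 to 67.64 CPM in control, 37.74 to 55.24 with SB525334, 18.76 to 34.08 with KN046 and 46.13 to 100.8 under the combination, with none at 0 throughout a group. Of the 10, 6 were lower with KN046 than in control, 10 were higher with the combination than with KN046, and 9 had a positive interaction, and with control pairs summed these were 0, 9 and 5. Of 5 NK cell markers, 3 were tested and 1 was higher with the combination than with KN046, and their summed range was 4.247 to 11.81 CPM with KN046 and 8.461 to 13.06 with the combination. The part of T or NK cell content in the receptor values was not tested.

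Promoters of Il12rb2 and Il7r are shown because both receptors were higher with the combination than with KN046 and each window holds a STAT-type motif, the letters TTCNNNGAA. The promoter of Il1b, which moved the same way, is shown beside them and holds none of the motifs searched. Sequences are the 250 bases before the RefSeq start in GRCm38.p6, an older build than that of the counts, written 5′ to 3′ on the gene's strand, with matches in capitals. In Il12rb2 the first run of capitals is the HNF1 half-site GTTAAT and the second is the STAT-type motif.
Il12rb2, chr6:67376189-67376438, minus strand: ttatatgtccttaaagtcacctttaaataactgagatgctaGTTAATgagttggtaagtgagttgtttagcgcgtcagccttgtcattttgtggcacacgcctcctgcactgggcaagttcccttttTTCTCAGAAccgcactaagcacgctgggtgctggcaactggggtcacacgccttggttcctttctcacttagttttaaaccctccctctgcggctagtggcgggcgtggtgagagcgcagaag
Il7r, chr15:9529877-9530126, minus strand: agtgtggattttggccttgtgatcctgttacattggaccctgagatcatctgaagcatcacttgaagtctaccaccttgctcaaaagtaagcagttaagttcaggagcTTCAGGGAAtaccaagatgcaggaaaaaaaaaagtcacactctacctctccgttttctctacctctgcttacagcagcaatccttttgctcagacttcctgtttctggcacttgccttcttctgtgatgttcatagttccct
Il1b, chr2:129371140-129371389, minus strand: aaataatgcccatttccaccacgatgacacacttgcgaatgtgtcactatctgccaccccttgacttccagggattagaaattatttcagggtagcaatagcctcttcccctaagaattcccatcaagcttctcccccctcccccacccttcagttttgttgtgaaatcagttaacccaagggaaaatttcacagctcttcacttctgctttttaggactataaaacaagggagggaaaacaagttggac
On both strands, the STAT-type motif was in 7.02% of all 32851 promoter windows and in 6 of 76 windows (7.89%) of the 62 members that had a RefSeq window. Of the 12 members higher with the combination than with KN046, 8 had a window and 2 of these, the ones shown, hold the STAT-type motif. A match is a description of these letters only.

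Il17rb, Il22ra1 and Il13ra1 were the receptors lower with the combination. Il17rb encodes the receptor chain for IL-17B and IL-25 (GRCm39 chr14:29716082-29730956, minus strand). It was 2.49, 3.12, 1.83 and 1.99 CPM in control and 2.08, 2.53, 3.07 and 2.75 CPM with KN046. It was 0.723, 0.677, 0.516 and 0.431 CPM with SB525334 and 0.513, 0.0552, 0 and 0 CPM with the combination, where mouse 1 had 10 counts, mouse 2 had 1 count and the others had none. Both groups given SB525334 were below both groups not given it, and the combination overlapped SB525334 alone only through mouse 1. Il17rb fell against control by 2.00 on the log2 scale with SB525334 (SE 0.53, edgeR adjusted p = 0.0179) and by 3.99 with the combination (SE 0.64, edgeR adjusted p = 0.000156). Against KN046, the combination was lower by 4.14 (log2 fold change -4.14, SE 0.64, edgeR adjusted p = 0.000113). Both combination calls held in 16 of 16 fits without 1 mouse, and the SB525334 call in 13 of 16, with 0.0651 without control mouse 2 and 0.0904 with control pairs summed.

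The difference between the combination and SB525334 alone was -2.0 (SE 0.68, edgeR adjusted p = 0.177) and was not called by edgeR, while DESeq2 called Il17rb lower. Exons of Il17rb share 38.8% of their bases with Actr8 and 1.59% with Chdh, both on the opposite strand. Actr8 was 42.8 to 49.8 CPM as a group mean and was not called in any of the 4 comparisons with control or KN046. Chdh, a choline dehydrogenase of liver and kidney, was 17.9 CPM in control, 1.72 with SB525334, 19.0 with KN046 and 0.152 under the combination. Without a stated strand setting, it cannot be told whether Il17rb lost or gained reads over the shared bases. In the combination Actr8 averaged 46.3 CPM, while Il17rb had 1 count in mouse 2 and 0 in mice 3 and 4.

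Il22ra1, the chain by which hepatocytes and epithelia respond to IL-22 (GRCm39 chr4:135455428-135479451, plus strand), was 1.14, 1.80, 0.812 and 0.993 CPM in control and 0.452, 0.398, 0.732 and 0.345 CPM with SB525334. It was 1.01, 2.67, 4.97 and 2.08 CPM with KN046 and 0.205, 0.441, 0.109 and 0.189 CPM with the combination, which is 2 to 8 counts a library. All combination mice were below all control and all KN046 mice. Il22ra1 fell with the combination against control by 2.31 on the log2 scale (SE 0.53, edgeR adjusted p = 0.00554), and was -3.48 against KN046 (SE 0.53, edgeR adjusted p = 8.42e-05), and both calls held in 16 of 16 fits. With SB525334 alone it was -1.29 (SE 0.48, edgeR adjusted p = 0.119), with no overlap between the mice, and was not called. Its ligand Il22 had 0 counts in all 16 mice, which allows up to 0.00909 CPM over all libraries.

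Il13ra1, a chain of the receptor for IL-13 and of the type II receptor for IL-4 (GRCm39 chrX:35375461-35435331, plus strand), was 34.6, 30.3, 23.7 and 24.4 CPM in control, 16.5, 11.9, 18.6 and 18.8 CPM with SB525334, 19.1, 19.4, 27.8 and 21.3 CPM with KN046 and 15.2, 14.3, 18.1 and 16 CPM with the combination. Both groups given SB525334 lay below all controls. The fall against control was 0.78 on the log2 scale with SB525334 (SE 0.17, edgeR adjusted p = 0.00375) and 0.83 with the combination (SE 0.17, edgeR adjusted p = 0.00188), and each held in 16 of 16 fits and with control pairs summed. Il4ra, its partner chain, was 55.5 to 72.7 CPM over all mice and was not called.

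Hepatocyte markers were measured beside these receptors. All 14 markers were lower with SB525334 and with the combination than in control, 14 were lower with the combination than with KN046 and than with SB525334, and 0 were called in KN046 against control. Il13ra1 was not called in the combination against KN046. In the combination against SB525334 edgeR called none of these receptors, while DESeq2 called Il17rb lower. The 5 Kupffer cell markers were lower with SB525334 and with the combination than in control, with summed ranges of 161.9 to 331.2 CPM in control, 9.563 to 24.27 with SB525334, 52.55 to 391.7 with KN046 and 1.474 to 12.4 under the combination. Of 5 epithelial markers, 2 were lower with SB525334 and 3 with the combination against control, with summed ranges of 123.8 to 230.9 CPM in control and 1.583 to 5.242 with the combination. Of 5 endothelial markers, 4 were lower with SB525334 (3 with control pairs summed). The part of liver content in Il17rb, Il22ra1, Il13ra1 and Il18bp was not tested.

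**Figure D5:**
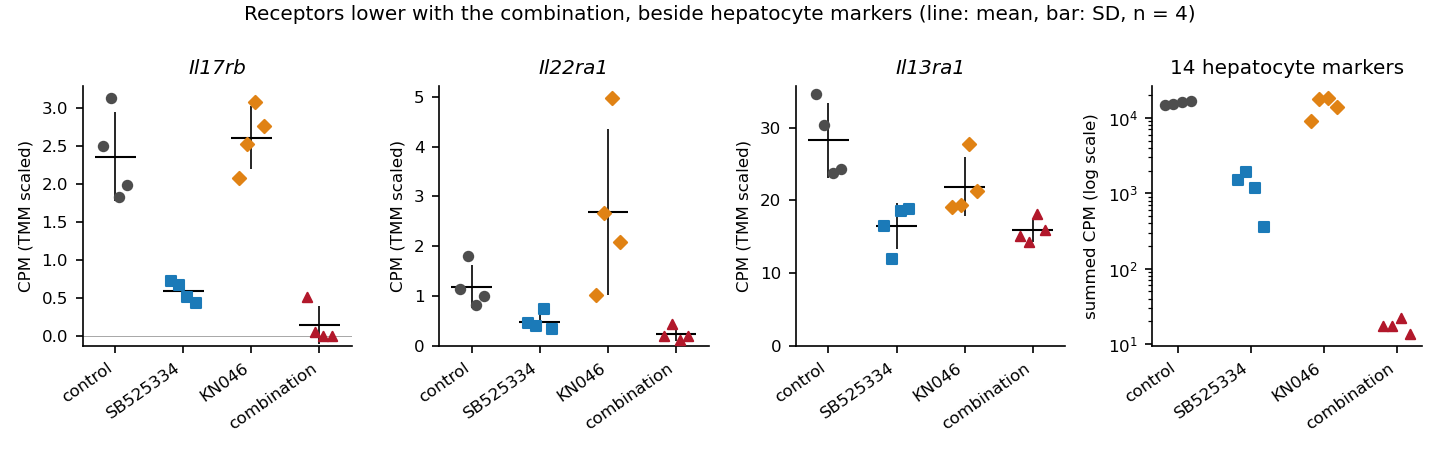
Level of Il17rb, Il22ra1 and Il13ra1 in each mouse, in CPM, and the summed CPM of 14 hepatocyte markers on a log axis. Each symbol is 1 mouse, and horizontal lines and vertical bars in the first 3 panels are mean and SD (n = 4). The markers were 14780 to 16520 in control and 13.62 to 21.94 with the combination.

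The promoters of these 3 receptors are printed because the genes were lower together with the combination. An AP-1 type motif, TGANTCA, is in capitals in Il17rb and Il22ra1, and Il13ra1 holds none of the motifs searched. Build, length and orientation are as above.
Il17rb, chr14:30008897-30009146, minus strand: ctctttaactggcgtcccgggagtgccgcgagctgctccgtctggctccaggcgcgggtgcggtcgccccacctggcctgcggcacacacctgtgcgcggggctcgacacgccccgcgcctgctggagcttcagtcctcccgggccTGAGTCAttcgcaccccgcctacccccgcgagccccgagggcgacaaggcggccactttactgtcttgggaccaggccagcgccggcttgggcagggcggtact
Il22ra1, chr4:135727909-135728158, plus strand: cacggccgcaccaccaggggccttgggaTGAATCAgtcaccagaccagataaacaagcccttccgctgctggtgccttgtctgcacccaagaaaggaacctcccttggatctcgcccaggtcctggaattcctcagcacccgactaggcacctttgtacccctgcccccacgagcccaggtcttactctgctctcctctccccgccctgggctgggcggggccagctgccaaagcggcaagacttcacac
Il13ra1, chrX:36111858-36112107, plus strand: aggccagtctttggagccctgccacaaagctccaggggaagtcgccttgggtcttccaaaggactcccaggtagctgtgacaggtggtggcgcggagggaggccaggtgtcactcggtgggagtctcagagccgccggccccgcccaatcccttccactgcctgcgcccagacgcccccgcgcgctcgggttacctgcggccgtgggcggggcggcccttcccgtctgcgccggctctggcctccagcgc
The AP-1 type motif was in 6.75% of all promoter windows and in 13 of 76 member windows (17.1%). Among these is a window of Il1rn, which was higher with the combination than with KN046. A match again describes the letters only. The HNF4 motif CAAAGTCCA was in 0.384% of all windows and 0 member windows, and the HNF1 half-site in 6.43% and 5 member windows (6.58%). No motif overlapped another of those searched in the windows shown.

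Il6st was 307.9, 310.5, 240.3 and 238.2 CPM in control, 246.8 to 265.3 with SB525334, 211.6 to 266.5 with KN046 and 203.9 to 268.2 under the combination, and no comparison called it. Il16, a T cell chemoattractant released from a larger precursor, was 11.5 to 21.0 CPM over all mice, overlapped between all groups and was not called. The other members of this kind, Il1rapl1 and Il4i1, had 54 and 81 counts in all and did not pass the filter. Il1rapl1, a synaptic adhesion protein, averaged 0.111 CPM in control, 0.0968 with SB525334, 0.326 with KN046 and 0.144 under the combination, and the lowest exact two-sided permutation p among 5 comparisons was 0.114. Il4i1, a secreted amino acid oxidase of myeloid and B cells, averaged 0.209, 0.156, 0.218 and 0.394 CPM in the same order, with a lowest exact permutation p of 0.229, and 77.4% of its exon bases lie also in Tbc1d17.

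Among genes outside the name rule, 3 lists were followed, and 4 mice against 4 allow no exact p below 0.0286 for any single gene. Of 15 shared chains and related ligands, 13 were tested and Lifr, the LIF receptor that pairs with Il6st, was the only one called against control. Lifr was 30.1 ± 3.51 CPM in control, 10.8 ± 1.59 with SB525334, 20.7 ± 1.43 with KN046 and 7.21 ± 2.47 under the combination (SD, n = 4). Its log2 fold change was -1.48 with SB525334 (edgeR adjusted p = 1.42e-05) and -2.06 with the combination (edgeR adjusted p = 1.72e-07). Against KN046 the combination lowered 3 of 13, Lifr, Cntfr and Clcf1, and 0 were called between the combination and SB525334 or in the interaction.

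Of 17 JAK-STAT and feedback genes, 0 were called with SB525334 against control. Ptpn6, a phosphatase that damps cytokine signaling, was 41.3 ± 1.5 CPM in control, 30.7 ± 3.82 with SB525334, 17.9 ± 9.15 with KN046 and 32.8 ± 4.15 under the combination (SD, n = 4). It fell with KN046 by 1.20 on the log2 scale (edgeR adjusted p = 0.0238), and had a positive interaction of 1.30 (edgeR adjusted p = 0.0438), and these were 0.196 and 0.14 with control pairs summed. In all, 2 fell with KN046 against control, 3 rose and 1 fell with the combination against KN046, and the interaction was positive for 2, and not all of these are named here. With the combination against KN046, Ptpn6 and Socs1 rose and Socs2 fell, and with the combination against control only Socs2 was called, lower. The median log2 fold change of the 17 was -0.15 with KN046 and 0.09 with the combination against KN046, beside -0.03 and 0.00081 for all genes.

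Of 16 genes of IL-1, IL-18 and IL-17 signaling and IL-1 processing, 0 were called with SB525334 against control, and with KN046 3 fell and 1 rose. The 3 were Casp1, the protease that matures IL-1β, at -0.84 (edgeR adjusted p = 0.0499), Nlrp3, its inflammasome sensor, at -1.03 (edgeR adjusted p = 0.0401) and the receptor-proximal kinase Irak4 at -0.65 (edgeR adjusted p = 0.0161), and Tollip rose by 0.50 (edgeR adjusted p = 0.0239). With control pairs summed 0 of these 4 calls held, at adjusted p-values of 0.171 to 0.268. With the combination against KN046, 5 rose and 0 fell, namely Gsdmd, Sigirr, Myd88, Nlrp3 and Irak4, of which Gsdmd and Nlrp3 were lost with control pairs summed, at 0.0591 and 0.0522. The interaction was positive for Casp1 at 1.26, Nlrp3 at 1.46 and Irak4 at 0.62, at edgeR adjusted p-values of 0.0296 to 0.0434, and at 0.0878 to 0.139 with control pairs summed. The median of the 16 was -0.11 with KN046, 0.19 with the combination against KN046 and 0.35 for the interaction, beside 0.0093 for the interaction of all genes. The combination against control lowered Irak3 only (edgeR adjusted p = 0.0443, or 0.157 with control pairs summed), and against SB525334 0 of the 17 and 0 of the 16 were called.

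The remaining 40 members did not pass the filter, of which 26 were ligands, 8 receptor chains and 3 antagonists or decoys. Among them 27 had at least 1 count, with a highest total of 107 for Il17f, and 13 were at 0 in every mouse, 10 of which were ligands. Il9r, the IL-9 receptor chain, had 3, 0, 1 and 9 counts in control, 0, 4, 0 and 3 with SB525334, 0, 10, 3 and 1 with KN046 and 14, 4, 0 and 36 with the combination. Combination mice 1 and 4 held most of its 88 counts, the groups overlapped, and the exact two-sided permutation p for mean CPM was 0.257 for the combination against control and 0.171 against SB525334. Il10 had 60 counts over all mice, Il13 had 8, Il2 had 6 and Il21 had 13, and none of these ligands was tested. Counts of Il11ra1 and of its near-identical copies Il11ra2 and Il11ra3 are uncertain, since reads could be split between them.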

How the data were processed

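RNA sequencing of liver metastases from 16 mice was analysed, and the labels give 1 mouse per sample and the treatment of each. The authors used cutadapt 2.7 for trimming, HISAT2 2.2.1 for alignment to GRCm39, HTSeq 2.0.4 for counting per gene and DESeq2 1.38.3, according to the submitters' processing notes and the study's methods, and deposited raw counts with one file per mouse. Here 100% of the deposited normalized signal values were within 1 of the raw count divided by a library factor, and the authors' normalized values were not used further. Gene names, coordinates and exon lengths came from GENCODE M39, which held 21770 of the 21959 genes. The strand setting of the counting is not given in the sources used here.

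Raw counts were tested with the quasi-likelihood test of edgeR 4.0.16 in R 4.3.3, in 1 fit of all 16 mice with TMM scaling, after filterByExpr with a minimum count of 10, which kept 13968 genes. P-values were adjusted by Benjamini-Hochberg over all genes tested, with a threshold of 0.05, and standard errors were derived from the F statistic. Values outside the filter were compared by a two-sided exact permutation test over mice. P-values measure the spread between these mice only. The test and DESeq2 were checked on simulated counts in which 200 genes were raised or lowered 4-fold in the combination only. For the combination against control, edgeR called 179 of these and 6 unchanged genes, and DESeq2 called 182 and 29. Where no gene was changed, edgeR called 0, and DESeq2 called 4 with SB525334 and 3 with KN046 against control. A library at 0 was taken to allow 3 counts, which covers counting error only. Alternatives were RLE scaling, DESeq2 1.42.0, no filter, a mean of 1 CPM, only the mice of the groups compared, a replicate block, control pairs summed, the study's thresholds (DESeq2 unadjusted p under 0.05 and fold change over 2) and leaving out each mouse.

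For mice with the same number in different groups, the correlation of their deviations was -0.48 to 0.53 over 24 such pairs, and over 0.1 in 11. Over the 72 pairs with different numbers it was -0.53 to 0.50. The numbers were not taken as pairs, and the fit with a replicate block is given below. Control mice 3 and 4 gave a median chi-square of 0.956 per gene and mice 1 and 2 of 1.25, above sampling noise, since 18.1% and 24.8% of genes were past the limit that chance gives in 0.05 of genes, but below the other 22 pairs within groups at 2.82 to 18.7, and all were kept as separate mice.

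Members, lists and alternatives were chosen with earlier results of these data known. Named with values were members called in any comparison, Il6 and Il9r, and the 3 members of each role with the highest mean CPM per kilobase of exon. Any other member named was chosen after its values were seen. Of 15 hepatocyte markers listed, 14 matched a symbol in the files. Promoters were from RefSeq (GRCm38.p6), which covered 62 of 84 members. One item of the JAK-STAT and feedback list is not reported here.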

Additional observations from a re-analysis of the deposited data

Results flagged for a closer look

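The highest or lowest mouse of a group of 4 stood apart, with a gap to the nearest of the others past Dixon's critical value, in 7 of 112 groups of the 28 named members, where chance gives about 1 in 20 groups, or 5.6. SB525334 mouse 3 was apart in 4 of these, at 20.1 CPM for Il10rb against 23.2 to 23.7 in the others, 4.13 CPM for Il1r2 against 1.40 to 1.79, 0.344 CPM for Il1rapl1 against 0 to 0.0431 and 0.301 CPM for Il6 against 0 to 0.0398. KN046 mouse 2 had 19.3 CPM of Il15ra against 12.6 to 13.2, and KN046 mouse 1 had 14.4 CPM of Il2rg against 19.8 to 20.6. Combination mouse 1 had 0.513 CPM of Il17rb against 0 to 0.0552. The effect of SB525334 differed with and without KN046, by the interaction term of the edgeR fit, in 5 members: by 3.40 on the log2 scale for Il1b, 1.65 for Il1rn, 1.98 for Il21r, 0.60 for Il10rb and 0.93 for Il15ra. Their adjusted p-values were 0.0203 to 0.0470, and 0.0667 to 0.136 with control pairs summed.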

How the results depend on the processing

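All 30 member calls kept their direction under every alternative run. Of 714 values of these calls under the alternatives, 560 stayed past the threshold and 154 did not. DESeq2 kept 30 of 30 calls, RLE scaling and no filter 29 each, the filter at a mean of 1 CPM all 29 it tested, control pairs summed 19, only the mice of the groups compared 16 of 25, and the study's thresholds, which apply to DESeq2's unadjusted p, 20. Members lower with SB525334 than in control numbered 2 with control pairs summed and 7 by the study's thresholds. Members lower with KN046 than in control were 7 by DESeq2 and 0 both with only these mice and with control pairs summed, and 1 was higher by the study's thresholds. Over all genes, KN046 against control had 559 calls in the fit of all 16 mice and 1256 by DESeq2. It had 75 with only these mice and 0 with control pairs summed. Against control, the combination had 1 member higher by DESeq2 and with only these mice, and 6 lower by DESeq2. Against KN046 it had 7 higher with only these mice and by the study's thresholds. Against SB525334 it had 1 higher by the study's thresholds, and 1 lower by these and by DESeq2. The interaction was positive for 8 members by DESeq2, 0 with control pairs summed and 10 by the study's thresholds, and negative for 1 by DESeq2 and 3 by the study's thresholds. The cause of these shifts was not tested.

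The fit with a replicate block kept 23 of 30 calls, and under the replicate block the combination against control had 1 member higher, Il34, and the interaction was positive for 3, Il2rb, Il10ra and Il2ra, while the 5 interaction calls without the block were at adjusted p-values of 0.0503 to 0.0725. In the labels, same-numbered mice share only a number. Leaving out each of the 16 mice in turn gave 2 to 5 members lower with SB525334 against control, 0 to 9 lower with KN046, 0 to 1 higher and 3 to 5 lower with the combination, 4 to 14 higher and 2 to 3 lower with the combination against KN046, 0 to 1 lower with the combination against SB525334, and 1 to 8 positive and 0 to 1 negative for the interaction. Of 37 ligands, 26 did not pass the filter on low counts, and 10 of these had 0 counts.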

Other observations

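The values here were chosen after they were seen. No test was added for them, and the adjusted p-values and counts of calls given here come from the fits above. Il1rl1, the receptor of IL-33, was 64.4 CPM in KN046 mouse 4, against 19.9 to 27.4 CPM in the other KN046 mice, and 52.5 CPM in SB525334 mouse 4, against 26.2 to 33.7 CPM in the other SB525334 mice. Its ligand Il33, an alarmin of stromal and endothelial cells, was 6.53 to 18 CPM in control, 4.02 to 8.31 CPM with SB525334, 3.94 to 12.2 CPM with KN046 and 3.06 to 8.15 CPM with the combination, and its log2 fold change against control was -1.07 with SB525334 and -1.19 with the combination, at edgeR adjusted p-values of 0.0933 and 0.0511.

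Combination mice 1 and 4, the highest for Il7r, Il2rb and Il9r, had summed B cell markers of 23.42 and 61.51 CPM and summed T cell markers of 82.21 and 100.8 CPM, against 2.925 and 2.293 CPM and 46.13 and 54.8 CPM in mice 2 and 3. Of 7 B cell markers, 2 were higher with the combination than in control and 4 than with SB525334, and with control pairs summed 0 and 3. Il36g, an IL-36 ligand of epithelia, had 46 counts in control mouse 1 and 0 to 8 in each other mouse. Of 8 fibroblast markers, 0 were called with either single agent against control, and with the combination 2 were lower than in control (1 with control pairs summed). Against KN046, 2 were higher with the combination and 1 lower, and against SB525334 1 was lower. The summed level of the 8 was 7667 to 8356 CPM in control and 6347 to 11740 CPM with the combination. Of 5 mast cell, basophil and eosinophil markers, 1 was tested and was lower with SB525334 than in control, and their summed level was 0.355 to 7.305 CPM in control and 0 to 0.226 CPM with SB525334.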
